A study of Mus musculus with 4 samples.

Results

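The cap-binding translation initiation factors were followed here as 10 genes, chosen by symbol from a list of eIF4F genes and their regulators, out of 32285 genes counted in single cells of mouse ascites. All 10 were found in each of the 4 libraries. Ascites is the fluid that collects in the peritoneal cavity, and it was taken from female FVB mice 6 weeks after the injection of Br-Luc cells, a mouse ovarian cancer line without p53 and Brca1 that carries myc and myristoylated Akt. All mice carried this tumor. One group had received siCont-LNA, a control siRNA with locked nucleic acid bases, and the other siFXR1-LNA against Fxr1, both in jetPEI particles, and each group gave 2 libraries (replicates 1 and 2). Each library pools the ascites of 3 mice. The protocol lists a red cell lysis and no sort by cell type.

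Translation of most mRNAs begins when eIF4F binds the 5' cap. Eif4e encodes the subunit that holds the cap, Eif4g1 and Eif4g3 encode scaffolds that join it to the ribosome, and Eif4a1 and Eif4a2 encode helicases that unwind the leader with help from the products of Eif4b and Eif4h. Eif4ebp1 and Eif4ebp2 encode repressors that hold eIF4E away from the scaffold until the kinase complex mTORC1 phosphorylates them, while the product of Eif4g2 (also called DAP5) lacks the eIF4E contact and serves cap-independent starts. The libraries measured mRNA only, so neither the amount of these proteins nor their phosphorylation was seen.

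The genes lie on 9 chromosomes of GRCm38, the assembly behind mm10. Eif4e spans chr3:138526179-138559696 and Eif4g1 chr16:20668313-20692884, both on the plus strand, and Eif4ebp1 spans chr8:27260329-27276674, also on the plus strand. Eif4g3 is the longest of the 10 at 215 kb, of which 5.13% is exonic, and Eif4a1 is the shortest at 5.49 kb, of which 79.0% is exonic. Eif4a2 overlaps Rfc4 on the opposite strand and Eif4g3 overlaps the antisense gene 1700095J12Rik, while Eif4ebp2 overlaps the intronic Gm48086 on its own strand, which is also in the files, so their levels are uncertain to that extent. Whether introns were counted is not given in the sources used here.

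Since the tumor line carries myc, the promoters were searched for CACGTG, the E-box letters that MYC and its partner MAX are known to bind. RefSeq (GRCm38.p6) gave promoters, from 250 bases before to 50 after the start, for 8 of the 10 genes. The letters, which read the same on both strands, stood in promoters of 4 of them, and in 7.15% of all 32851 promoters of this length. A match is a description of the sequence and does not show binding. The stretches around the first match in each promoter are shown so that the letters can be seen in place, in capitals, 5' to 3' on the strand of the gene.

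Eif4e, chr3:138527028-138527057, plus strand: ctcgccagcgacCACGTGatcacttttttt
Eif4g1, chr16:20672661-20672690, plus strand: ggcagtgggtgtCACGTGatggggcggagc
Eif4a1, chr11:69672595-69672624, minus strand: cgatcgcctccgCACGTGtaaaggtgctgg
Eif4h, chr5:134639488-134639517, minus strand: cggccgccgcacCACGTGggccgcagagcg

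Eif4e has 2 promoter entries, and these letters are not in the other entry. The promoters listed for Eif4g3, Eif4a2, Eif4b and Eif4ebp2 do not hold them. Eif4ebp1 and Eif4g2 were not matched.

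The deposited libraries held 101500063 and 88346685 UMIs (unique molecular identifiers, each a counted mRNA molecule) in the siCont-labelled replicates 1 and 2, and 113606837 and 78179267 in the siFXR1-LNA-labelled ones. After filters, 132644 cells were left, and clustering gave 13 clusters, of which those with enough raised markers were named. Levels are given as CPM, the UMIs of a gene per 1000000 UMIs of that cell type in that library. Between 3.41% and 7.84% of the barcodes of the smaller library in a pair also occurred in the other library.

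The cells of a cluster with raised epithelial and mesothelial markers, here called Wt1-high cells, numbered 736 and 109 in the siCont-labelled libraries and 1245 and 357 in the siFXR1-LNA-labelled ones. Their cluster had 3 of 5 epithelial markers raised but also 4 of 5 mesothelial markers, and its leading genes were Kcnd2, Tenm3, Ctnna2 and Zfpm2, so it was not called epithelial. Wt1, which mesothelium and ovarian tumors share, was the most abundant of the mesothelial markers, with 987, 1145, 1187 and 772 CPM in the 4 libraries against 199, 111, 258 and 136 CPM in unnamed cluster 0. Keratins did not set the cells apart in every library, and Epcam, a defining epithelial marker, was at 5.58, 4.51, 2.39 and 18.5 CPM. Macrophages numbered 4297, 2095, 3977 and 3717 in the 4 libraries in the same order. Granulocytes, B cells, T cells, dendritic cells and mast cells were also compared.

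A pair of large droplet groups stood apart and differed between the groups. Unnamed cluster 0 held 46523 shallow droplets, of which 41036 and 5386 came from the siFXR1-LNA-labelled libraries and 55 and 46 from the siCont-labelled ones, and was led by Ccn2, Tfrc, Dcn and Ndrg1. Erythroid droplets, 37991 in all, came almost wholly from the siCont-labelled libraries (22123 and 15795 against 15 and 58). Hemoglobin took 29.5% and 41.1% of all UMIs in the siCont-labelled libraries and 10.0% and 9.11% in the others. Ndrg1, a leading gene of cluster 0, was at 22.2 and 9.68 CPM in siCont-labelled B cells and 456 and 167 CPM in siFXR1-LNA-labelled ones. In the siFXR1-LNA-labelled libraries it was at 662 and 217 CPM in cluster 0 and at 768 and 489 CPM in Wt1-high cells, so it was not particular to cluster 0. Krt19, a keratin, was at 332, 319, 176 and 305 CPM in Wt1-high cells, at 131, 50.4, 171 and 120 CPM in B cells and at 224, 247, 253 and 156 CPM in cluster 0. In siFXR1-LNA replicate 1 the Wt1-high cells thus lay below cluster 0 in Krt19. The part of free RNA in the differences between labels was not tested.

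Fxr1, the target, was reported first as a check of the labels. In Wt1-high cells it stood at 113 and 135 CPM in the siCont-labelled libraries and 144 and 139 CPM in the siFXR1-LNA-labelled ones (log2 fold change 0.21, SE 0.26, adjusted p = 0.693 with Benjamini-Hochberg adjustment in edgeR's quasi-likelihood test). In macrophages it stood at 65.7 and 61.0 against 73.5 and 69.0 CPM (0.35, SE 0.11, adjusted p = 0.0907). Both siFXR1-LNA-labelled libraries lay above both others in each of these 2 cell types, as did 25.5% and 23.1% of all genes tested in them. Neither difference passed. A lower level of the target mRNA was thus not seen under the siFXR1-LNA label, and groups are named by their labels throughout.

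Over both labels together, the mean over 4 libraries in the highest of 7 cell types was between 1.36 times (Eif4g2) and 2.81 times (Eif4ebp1) that in the lowest. For Eif4ebp1 the siCont-labelled libraries alone ranged further, from means of 18.0 CPM in mast cells and 24.8 in T cells to 158 in granulocytes. The mast cell mean rests on only 3 and 1 UMIs. Levels are compared within a gene only, since UMIs counted at 3' ends are not corrected between genes.

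**Figure D1:**
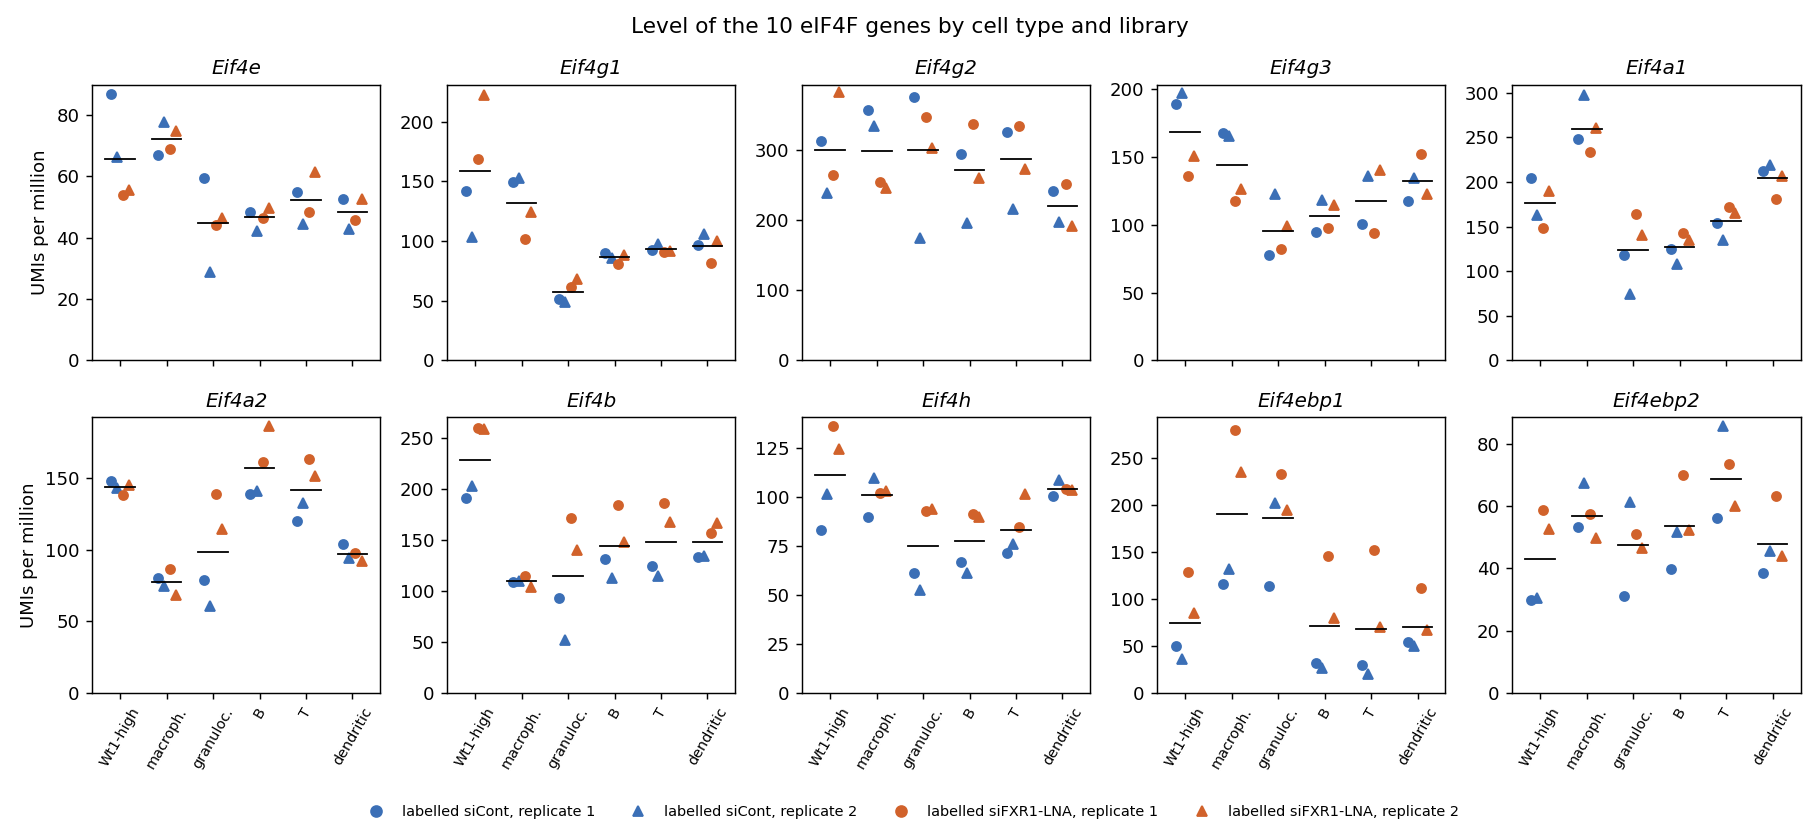
CPM (vertical axes, linear, starting at 0) of the 10 genes in 6 cell types (horizontal axes). Each point is a library, circles and triangles are replicates 1 and 2, blue and orange are the siCont and siFXR1-LNA labels, and bars are means of the 4 libraries. Eif4b is high in Wt1-high cells and Eif4a1 in macrophages, and Eif4ebp1 is higher under the siFXR1-LNA label in most types.

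The cap-binding subunit Eif4e was found at 72.2 ± 4.99 CPM in macrophages (mean ± SD, n = 4 libraries) and 65.8 ± 15.2 in Wt1-high cells, followed by mast cells, T cells, dendritic cells, B cells and granulocytes (44.8 ± 12.6). Every pair of neighbours in this order overlapped. The lowest library in macrophages (66.9 CPM) lay above the highest in T cells (61.6), granulocytes (59.6), dendritic cells (52.6) and B cells (49.8).

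Over both labels together, the scaffold genes Eif4g1 and Eif4g3 had their highest means in Wt1-high cells and their lowest in granulocytes. For Eif4g1 the order of the first types depended on the label. Its siCont-labelled means were 123 CPM in Wt1-high cells and 151 in macrophages, and its siFXR1-LNA-labelled means were 195 and 113. Eif4g1 was at 159 ± 49.8 CPM in Wt1-high cells, 132 ± 24.0 in macrophages and 57.6 ± 8.71 in granulocytes, with dendritic cells, T cells, B cells and mast cells between. Only T cells and B cells, among neighbours, did not overlap (90.5 to 97.4 against 81.1 to 90.4 CPM). Eif4g3 followed a like order, from 168 ± 29.4 in Wt1-high cells to 95.4 ± 20.4 in granulocytes, with all neighbours overlapping. Eif4g2 was even across types, between 220 ± 30.6 CPM in dendritic cells and 299 ± 88.2 in granulocytes.

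Of the helicase genes and their helpers, Eif4a1, Eif4a2 and Eif4b each had 1 pair of neighbours without overlap. Eif4a1 was at 260 ± 27.5 CPM in macrophages, above dendritic cells (204 ± 16.7) without overlap, and at 124 ± 38.2 in granulocytes. Eif4a2 ran the other way, with 77.5 ± 7.62 CPM in macrophages and 157 ± 21.9 in B cells, 144 ± 4.09 in Wt1-high cells and 142 ± 19.2 in T cells. Eif4b, which aids the helicase, was at 228 ± 36.4 CPM in Wt1-high cells and its lowest library there (191 CPM) lay above the highest of T cells (186 CPM), the next type. Eif4h ranged from 111 ± 23.8 in Wt1-high cells to 75.0 ± 21.3 in granulocytes, with all neighbours overlapping. Under siCont alone its means were 92.2 CPM in Wt1-high cells, 99.7 in macrophages and 104 in dendritic cells. Under siFXR1-LNA they were 130, 103 and 104 in the same order.

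The repressors differed from each other. Eif4ebp1 stood at 191 ± 80.1 CPM in macrophages and 186 ± 51.0 in granulocytes. In the other types the means were lower, with 74.9 ± 41.5 in Wt1-high cells, 70.8 ± 55.4 in B cells, 68.1 ± 60.4 in T cells, 70.6 ± 28.3 in dendritic cells and 84.7 ± 104.9 in mast cells, and both siFXR1-LNA-labelled libraries lay above both others in each of these types. Eif4ebp2 was at 68.8 ± 13.5 CPM in T cells and 43.0 CPM (range 30.0 to 58.9) in Wt1-high cells, the first and last in its order, with all neighbours overlapping.

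Set directly against macrophages of the same library, Wt1-high cells held more Eif4b (log2 ratio 1.05 ± 0.24, SD, n = 4), Eif4a2 (0.90 ± 0.17) and Eif4g3 (0.22 ± 0.04) in 4 of 4 libraries, and less Eif4ebp1 (-1.42 ± 0.33) and Eif4a1 (-0.56 ± 0.25) in 4 of 4. The other 5 genes changed side between libraries. Of these, Eif4g1, Eif4g2, Eif4h and Eif4ebp2 lay below macrophages in both siCont-labelled libraries and above in both siFXR1-LNA-labelled ones. Eif4e lay above in siCont replicate 1 only. Cell types came from clustering of the same cells, so no test was made, but none of the 10 genes was among the 2000 variable genes used to cluster all cells. Eif4ebp1 was among those used for the finer clusters of Wt1-high cells and of B cells.

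Which paralog supplied the UMIs of a family also depended on the cell type. Eif4a1 made up 76.9% ± 3.25 of Eif4a1 and Eif4a2 UMIs in macrophages, 67.7% ± 2.26 in dendritic cells, 54.9% ± 2.91 in Wt1-high cells and 44.8% ± 2.65 in B cells. Its share differed between the labels by -1.49 percentage points in Wt1-high cells and -1.68 in macrophages, less than the spread between libraries. With cells named from their own marker UMIs the difference in macrophages was -5.16, without overlap (74.0% and 79.3% against 69.7% and 73.3%). In the Eif4g family, Eif4g1 took 22.04% and 19.25% of the UMIs in siCont-labelled Wt1-high cells (exact binomial 95% intervals 20.6 to 23.5% and 15.8 to 23.1%) and 29.64% and 29.42% in siFXR1-LNA-labelled ones (28.2 to 31.1% and 27.4 to 31.4%). The labels did not overlap there, and Eif4g3 showed the reverse, with 29.41% and 36.61% against 23.90% and 19.99%. In macrophages Eif4g1 took 22.2%, 23.5%, 21.5% and 25.1%, with overlap. A two-sided exact permutation test over 4 libraries cannot go below p = 0.333, and it gave p = 0.333 for both shares in Wt1-high cells. The intervals cover counting error only.

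**Figure D2:**
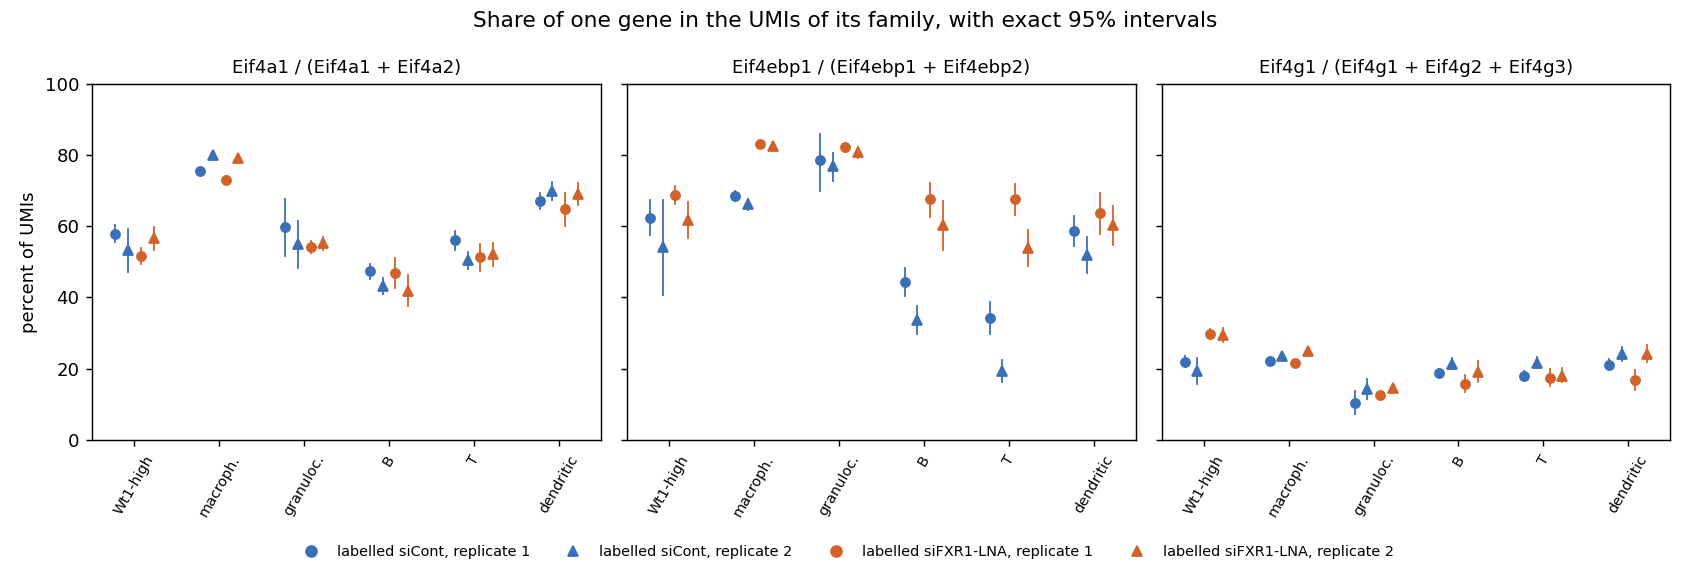
Percent of a family's UMIs that came from Eif4a1, Eif4ebp1 or Eif4g1 (vertical axis, 0 to 100) in 6 cell types. Points are libraries coloured by label and lines are exact binomial 95% intervals. The Eif4a1 share is highest in macrophages under both labels, and the Eif4ebp1 share in B and T cells is higher under the siFXR1-LNA label. It is also higher without overlap in macrophages (68.5% and 66.1% against 83.0% and 82.6%), granulocytes and dendritic cells. In Wt1-high cells the labels overlap (62.4% and 54.2% against 68.7% and 61.7%).

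Whether the treatment label went with a change of these genes was tested in Wt1-high cells. Eif4ebp1, the repressor, was higher in the siFXR1-LNA-labelled libraries, and the other 9 genes did not pass. Of 12501 genes tested in these cells, 7.42% were called and 2.74% were called higher, and of the 10 genes 1 was called. At an unadjusted p under 0.05 there were 3 of the 10, against 22.4% of all genes. The median log2 fold change of the 10 was 0.32, against 0.01 over all genes tested.

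Eif4ebp1 had 49.8 and 36.0 CPM in the siCont-labelled Wt1-high cells and 129 and 84.9 CPM in the siFXR1-LNA-labelled ones. Both siFXR1-LNA-labelled libraries lay above both others. The log2 fold change was 1.32 (SE 0.31, edgeR adjusted p = 0.0234), and it was not called without siFXR1-LNA replicate 1 (log2 0.90, adjusted p = 0.0707) or when each cell was named from its own marker UMIs (log2 0.80, adjusted p = 0.446). Its relative Eif4ebp2 had 30.0 and 30.4 against 58.9 and 52.7 CPM, again without overlap (log2 0.92, SE 0.27, edgeR adjusted p = 0.0588). Eif4ebp2 was called by edgeR with no filter (log2 0.94, adjusted p = 0.0274) and with no finer cluster left out (log2 0.99, adjusted p = 0.0402). Without siFXR1-LNA replicate 2 its log2 fold change was 1.06.

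The cap-binding subunit and the scaffolds did not pass. Eif4e had 87.0 and 66.5 CPM against 53.9 and 55.6, lower in both siFXR1-LNA-labelled libraries (log2 -0.49, SE 0.25, 95% interval -1.04 to 0.07, adjusted p = 0.289). Eif4g1 had 142 and 104 CPM against 169 and 222, higher in both (log2 0.67, SE 0.27, unadjusted p = 0.029, adjusted p = 0.166). Eif4g3 had 189 and 197 against 136 and 151, lower in both (log2 -0.41, SE 0.25, adjusted p = 0.376). For Eif4g2 the libraries overlapped, with 312 and 238 against 265 and 382 CPM (log2 0.23, SE 0.28, adjusted p = 0.691).

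Among the helicase genes, Eif4a1 had 204 and 163 CPM against 148 and 190 and Eif4a2 148 and 143 against 138 and 145, with log2 fold changes of -0.12 (SE 0.26) and -0.02 (SE 0.25). Their helpers Eif4b (191 and 203 against 260 and 259 CPM, log2 0.42, SE 0.26, adjusted p = 0.390) and Eif4h (83.0 and 101 against 136 and 125 CPM, log2 0.54, SE 0.27, adjusted p = 0.263) were higher in both siFXR1-LNA-labelled libraries without passing. Thus 5 of the 10 genes lay above in both and 2 below in both, where 25.5% of all genes tested did each.

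**Figure D3:**
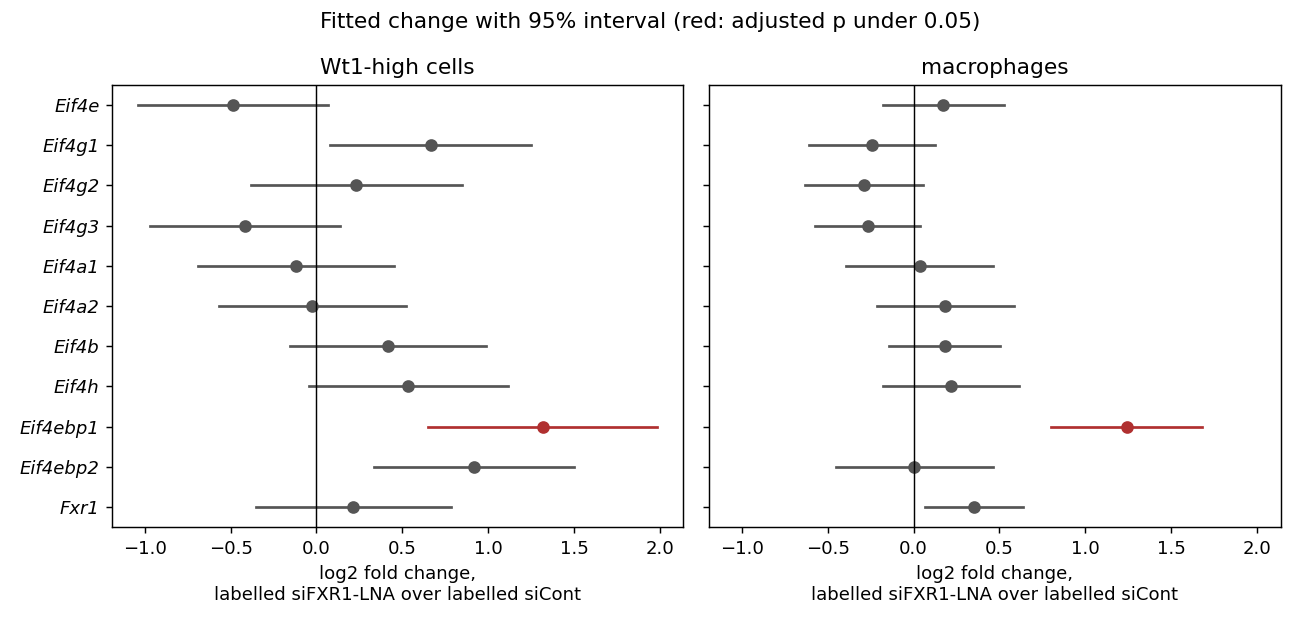
Fitted log2 fold change of the 10 genes and Fxr1, siFXR1-LNA label over siCont label, with 95% intervals (lines) from edgeR in Wt1-high cells (left) and macrophages (right). Red marks an adjusted p under 0.05. Eif4ebp1 is the red point in both panels, at 1.32 and 1.24.

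Wt1-high cells were made of finer clusters that the labels filled unequally. Finer cluster 0 (1426 cells, led by Aldh1l2, Vldlr and Vegfa) came from the siFXR1-LNA-labelled libraries but for 9 and 5 cells, finer cluster 1 (674 cells) mostly from the siCont-labelled ones, and finer cluster 3 (347 cells, led by Fxyd3 and Tm4sf1, with Krt19 at 513 to 748 CPM) from all 4 libraries. Within finer cluster 3, Eif4ebp1 had 100 and 75.6 CPM under siCont and 218 and 120 under siFXR1-LNA, without overlap. Since Eif4ebp1 was among the variable genes that formed these finer clusters, its levels within them are a description only. Eif4e was lower under siFXR1-LNA in finer cluster 3 too, with 94.4 and 87.5 against 53.5 and 57.6 CPM. Eif4g1 was not higher there, with 172 and 151 against 135 and 151 CPM, whereas finer cluster 0 held 174 and 261 CPM. Eif4ebp2 in finer cluster 3 had 29.9 and 39.8 against 46.2 and 36.7 CPM, with overlap. With only the finer clusters that had at least 10 cells in every library, the log2 fold change of Eif4ebp1 was 2.01 (edgeR adjusted p = 0.00156), and Eif4ebp2 (0.84), Eif4h (0.81) and Eif4a1 (0.82, which turned its direction) were called as well, in a fit that called 24.0% of all genes. These were finer clusters 1 and 3, whose mix still differed between the labels (552 and 79 against 30 and 13 cells in finer cluster 1, and 175 and 25 against 80 and 67 in finer cluster 3), so this fit does not hold composition fixed. Eif4ebp1 in finer cluster 1 was at 18.5 and 14.9 against 94.96 and 41.1 CPM, below its level in finer cluster 3 of the same library.

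**Figure D4:**
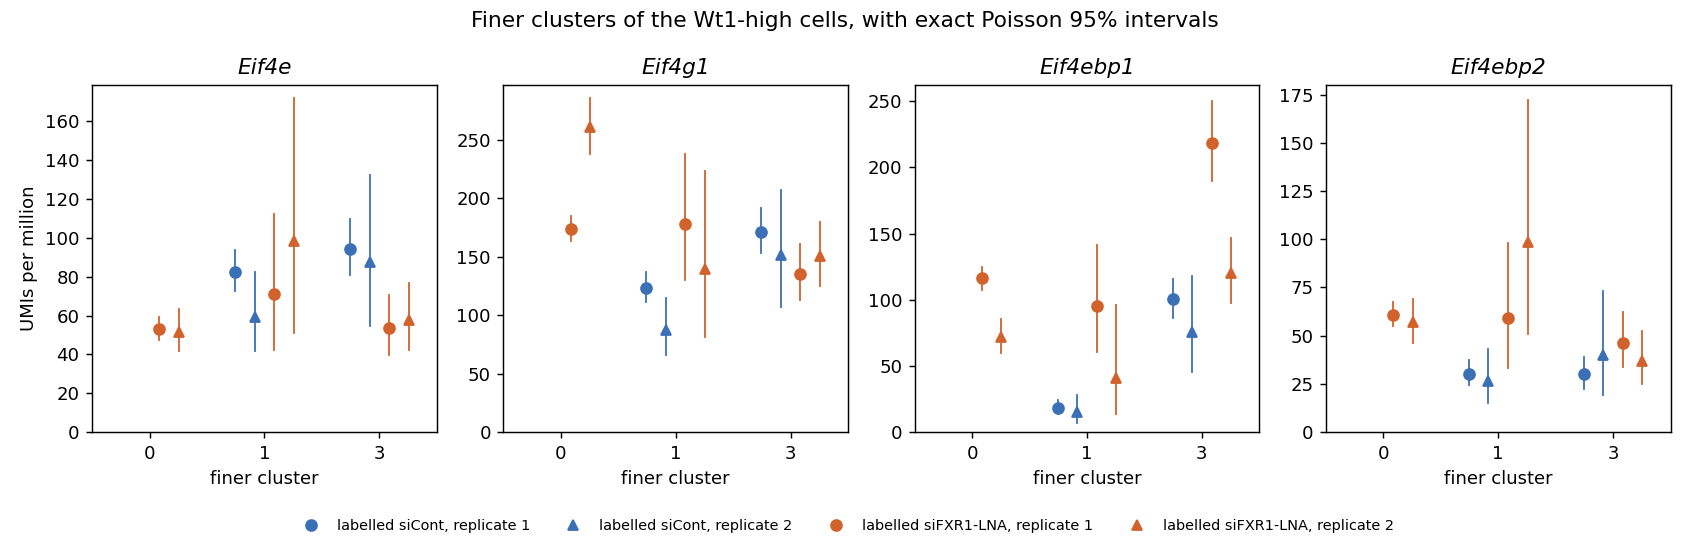
CPM of Eif4e, Eif4g1, Eif4ebp1 and Eif4ebp2 (vertical axes) in finer clusters 0, 1 and 3 of the Wt1-high cells, for sums of at least 100000 UMIs. Points are libraries coloured by label and lines are exact Poisson 95% intervals, for counting error only. In finer cluster 3 Eif4ebp1 is higher under the siFXR1-LNA label (218 and 120 CPM) than under siCont (100 and 75.6), while Eif4g1 is not.

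The same question was asked of macrophages, where 18.2% of 14244 genes tested were called and 9.06% were called higher. Again Eif4ebp1 was the 1 gene of the 10 that was called, and the 1 at an unadjusted p under 0.05, where 36.1% of all genes were. It had 116 and 132 CPM in the siCont-labelled macrophages and 281 and 236 CPM in the siFXR1-LNA-labelled ones (log2 fold change 1.24, SE 0.17, edgeR adjusted p = 0.0143). The groups did not overlap. The call was lost without siFXR1-LNA replicate 1 (log2 1.13, adjusted p = 0.0855) or replicate 2 (log2 1.38, adjusted p = 0.0549), with folds close to the reported one.

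The labels also filled finer clusters of macrophages unequally. Finer cluster 1 (4718 cells, led by Cxcl3, Nos2 and Lcn2) held 2 cells of the siCont-labelled libraries, and Eif4ebp1 was at 310 and 289 CPM in its siFXR1-LNA-labelled cells. Finer cluster 2 came from the siCont-labelled libraries alone (1057 and 715 cells), with Eif4ebp1 at 124 and 144 CPM. In finer cluster 0, which all libraries filled, Eif4ebp1 was at 115 and 125 against 199 and 124 CPM, with overlap. The small finer cluster 4, led by the cell cycle gene Birc5, had 96.5 and 123 against 253 and 155 CPM. How much of the difference came from the mix of finer clusters was not tested. With only finer clusters that had at least 10 cells in every library, the log2 fold change was 0.47 (adjusted p = 0.533), where no gene at all was called.

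The other 9 genes in macrophages had log2 fold changes from -0.29 to 0.22. Eif4e had 66.9 and 77.7 CPM against 69.1 and 74.9 (log2 0.17, SE 0.14, adjusted p = 0.413). Eif4g1 had 149.5 and 153 against 102 and 124 (log2 -0.24, SE 0.14, adjusted p = 0.288), Eif4g2 357 and 334 against 254 and 245 (log2 -0.29, SE 0.13, adjusted p = 0.193) and Eif4g3 168 and 165 against 117 and 126 (log2 -0.27, SE 0.12, adjusted p = 0.177). All 3 scaffold genes thus lay below in both siFXR1-LNA-labelled libraries, as did 46.3% of all genes tested, while 1 of the 10 lay above, as did 23.1%, and the median gene was shifted by -0.17 on the log2 scale in CPM against the fit. For Eif4ebp2 the fitted value was 0.00 (SE 0.18).

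Whether Wt1-high cells and macrophages differed in their change was tested in 1 fit of both, as a cell type by label term with a term for each library, and 0 of the 10 genes passed in edgeR, where 1.11% of 15614 genes did. At an unadjusted p under 0.05, where 13.1% of all genes were, there were 2, Eif4g1 (log2 fold change 1.00 higher in Wt1-high cells, SE 0.34, unadjusted p = 0.014, adjusted p = 0.234) and Eif4ebp2 (0.93, SE 0.31, unadjusted p = 0.013, adjusted p = 0.228), and DESeq2 called 0. For Eif4ebp1 the difference was 0.11 with a 95% interval from -0.73 to 0.95. Without siCont replicate 1 the difference of Eif4g1 was 1.32 and was called (adjusted p = 0.0437).

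In the other cell types no gene of the 10 passed in edgeR. With the replicate number as a block Eif4ebp1 passed in B cells (log2 1.72, adjusted p = 0.00294), T cells (1.92, adjusted p = 0.0205) and dendritic cells (0.70, adjusted p = 0.0441), in fits that called 7.42%, 3.5% and 11% of all genes in that order. In B cells, where 0.172% of genes were called, Eif4ebp1 had 31.7 and 26.2 CPM against 146 and 79.6 (log2 1.78, SE 0.36, adjusted p = 0.136). The labels filled different finer clusters of B cells, with 3197 and 2188 against 6 and 54 cells in finer cluster 0 and 50 and 51 against 811 and 539 in finer cluster 1, led by Saa3, Vegfa and Ndrg1. Of the B cell clusters kept, only finer cluster 1 had at least 10 cells in every library, so the siCont-labelled cells of finer cluster 0 were left out. In an edgeR fit of finer cluster 1, Eif4ebp1 (log2 2.29, adjusted p = 0.0200), Eif4a1 (1.57, adjusted p = 0.0252) and Eif4g3 (-1.48, adjusted p = 0.0159) were called. That fit called 17.6% of all genes, and Eif4ebp1 was among the variable genes that formed the finer clusters of B cells. In T cells, where 0.291% were called, Eif4ebp1 had 29.1 and 20.4 against 153 and 69.9 CPM (log2 2.03, SE 0.46, adjusted p = 0.208). T cells split likewise, with 1662 and 1778 against 3 and 38 cells in finer cluster 0 and 0 and 10 against 726 and 510 in finer cluster 1, led by Ccn2 and Ndrg1. All libraries filled finer clusters 2 and 3 of the T cells, where Eif4ebp1 had 39.2 and 37.7 against 141 and 76.2 CPM and 20.2 and 27.0 against 158 and 95.2 CPM, without overlap in either. With only finer clusters that had at least 10 cells in every library it was not called in T cells (log2 1.71, adjusted p = 0.0596), where 1.44% of all genes were. Eif4ebp1 was the 1 gene of the 10 at an unadjusted p under 0.05 in both B and T cells (13.3% of all genes in B cells and 11.5% in T cells), and DESeq2 called it in both (adjusted p = 0.0018 in both types), where it called 3.1% and 2.83% of all genes. In dendritic cells, where 3.49% were called, it had 54.6 and 49.4 against 112 and 66.8 CPM (log2 0.72, SE 0.26, unadjusted p = 0.028, as 18.9% of all genes had under 0.05, adjusted p = 0.201, not called by DESeq2). In granulocytes, where 2.69% were called, it had 114 and 203 against 234 and 194.5 CPM, with overlap, and 0 of the 10 reached an unadjusted p under 0.05 (17.9% of all genes) or a DESeq2 call. Finer cluster 0 of the granulocytes held 2 and 13 siCont-labelled against 5367 and 4469 siFXR1-LNA-labelled cells. Without siCont replicate 1, Eif4b was called there (log2 1.28, edgeR adjusted p = 0.0212). In mast cells, where 2.37% of 1520 genes were called, 4 of the 10 passed the filter on low counts, 1 of them (Eif4h) reached an unadjusted p under 0.05 (10.4% of all genes), and 0 were called by edgeR or DESeq2. Both siFXR1-LNA-labelled libraries lay above both others for 5 of the 10 genes in granulocytes (34.8% of all genes), 6 in B cells (36.4%), 5 in T cells (33.8%) and 2 in dendritic cells (27.9%). They lay below for 0 in granulocytes (16.3%), 0 in B cells (13.5%), 1 in T cells (12%) and 1 in dendritic cells (24.3%). In granulocytes, B cells, T cells and mast cells the median gene was 0.21, 0.19, 0.16 and 0.46 higher in CPM than in the fit.

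Eif4ebp1 was set beside the droplet groups, which the siFXR1-LNA-labelled libraries filled unequally. In siFXR1-LNA replicate 1 it stood at 146 CPM in B cells, 153 in T cells, 112 in dendritic cells, 129 in Wt1-high cells and 215 in unnamed cluster 0. In replicate 2 it stood at 79.6, 69.9, 66.8, 84.9 and 92.0 CPM in the same order. These types thus did not exceed cluster 0 in either library, while macrophages (281 and 236 CPM) and granulocytes (234 and 194.5 CPM) did in both. Hemoglobin and related erythroid markers made up much of cluster 0 in replicate 2 (450824 CPM), and less of it in replicate 1 (148210 CPM). Ndrg1 was higher in both siFXR1-LNA-labelled libraries in each of the 6 larger cell types, and so was Saa3, an acute-phase gene that macrophages held at 1088, 1452, 54092 and 51204 CPM.

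After each cell was thinned to 1000 UMIs, 10.4% and 7.63% of siFXR1-LNA-labelled Wt1-high cells held an Eif4ebp1 UMI, against 2.79% and 3.74% of siCont-labelled ones. In cluster 0 of the siFXR1-LNA-labelled libraries the shares were 19.5% and 9.06%, and in B cells 14.7% and 6.67%. The share in Wt1-high cells did not lie above that in cluster 0 in either library. No cell type is known to lack this gene, and erythroid droplets, the nearest to one, numbered 12 and 51 at this depth in those libraries. In macrophages the shares were 22.1% and 19.1% against 10.8% and 11.7%. Median depths were 4909 and 6578 UMIs in siFXR1-LNA-labelled Wt1-high cells and 1264 and 2140 in cluster 0. Without thinning the shares in these Wt1-high cells were 44.0% and 38.9%, against 17.5% and 21.1% in siCont-labelled ones. How much of the Eif4ebp1 difference was free RNA was not tested.

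**Figure D5:**
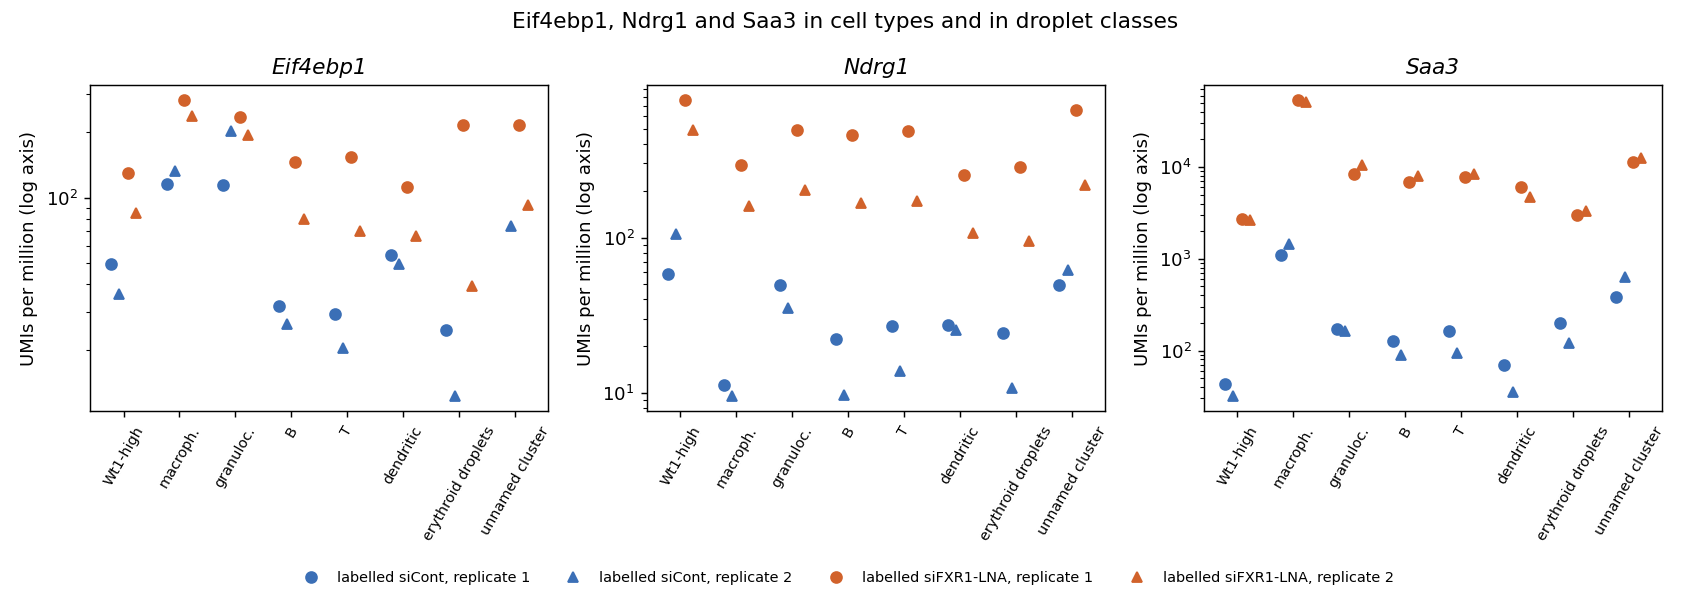
CPM (log axes) of Eif4ebp1, Ndrg1 and Saa3 in 6 cell types, erythroid droplets and unnamed cluster 0. Points are libraries coloured by label. All 3 genes are higher under the siFXR1-LNA label across B, T, dendritic and Wt1-high cells. In cluster 0 the siCont points rest on few UMIs (4 and 5 of Ndrg1, and 0 and 6 of Eif4ebp1, of which the first cannot be drawn on a log axis), so the labels are not compared there.

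Other genes of the pathway were taken from lists of cap regulators, mTORC1, eIF2, eIF3, other initiation factors and elongation or termination factors. In Wt1-high cells edgeR called 0 of 18 cap regulators, 0 of 13 eIF3 subunits, 0 of 13 other initiation factors and 0 of 10 elongation or termination factors tested. DESeq2 called 0 in each of these 4 lists too, and at an unadjusted p under 0.05 there were 3, 2, 1 and 1 genes in that order, each a smaller share than the 22.4% of all genes. Of the eIF2 list 2 of 17 were called by edgeR and by DESeq2, both higher, where edgeR called 7.42% and DESeq2 6.02% of all genes. These were Atf4, the transcription factor whose translation rises when eIF2 is phosphorylated (76.6 and 90.1 against 181 and 144 CPM, log2 1.00, SE 0.28, adjusted p = 0.0488), and Ppp1r15a, which brings a phosphatase to eIF2 (log2 1.56, SE 0.33, adjusted p = 0.0141). Of the mTORC1 list 1 of 19 was called, Rragc, a GTPase that recruits mTORC1 to lysosomes (log2 1.02, SE 0.26, adjusted p = 0.0342), a smaller share than that of all genes, and DESeq2 called 0.

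In macrophages edgeR called 18.2% of all genes and 9.06% as higher, and DESeq2 called 22.5%. DESeq2 called 2 cap regulators, 4 genes of the mTORC1 list and 5 of the eIF2 list, and 2, 9 and 6 genes of these lists reached an unadjusted p under 0.05, where 36.1% of all genes did. Of the cap regulators 2 of 20 were higher, Pdcd4, which blocks the eIF4A helicase (19.2 and 20.5 against 29.1 and 29.7 CPM, log2 0.75, SE 0.12), and Paip2, which holds poly(A)-binding protein away from the scaffold (69.0 and 66.8 against 112 and 98.8 CPM, log2 0.82, SE 0.13). Of the mTORC1 list 4 of 19 were called. Among these the inhibitors Ddit4 (15.8 and 19.8 against 123 and 123 CPM, log2 2.97, SE 0.17) and Sesn2 (log2 0.88, SE 0.18) were higher, and Mlst8, an mTOR subunit, was lower (log2 -0.95, SE 0.22). In Wt1-high cells Ddit4 lay the other way, at 78.9 and 105 against 57.0 and 55.6 CPM, and was not called. Of the eIF2 list 4 of 17 were called. Atf4 (log2 1.31) and Ppp1r15a (log2 2.32) were higher. Eif2s1, an eIF2 subunit (log2 -0.58), and Eif2ak2, a kinase of eIF2 (103 and 93.3 against 25.6 and 36.1 CPM, log2 -1.49), were lower. Of eIF3 2 of 14 were higher (Eif3h and Eif3m). The ribosome recycling factor Abce1 (1 of 13 other initiation factors) and the release factor Gspt1 (1 of 10 elongation or termination factors) were lower. For eIF3, other initiation and elongation or termination factors DESeq2 called 4, 1 and 2 genes, against 22.5% of all genes. In the same order 6, 2 and 2 genes reached an unadjusted p under 0.05, against 36.1% of all genes. The medians of these 6 lists were between 0.04 and 0.26, against 0.01 over all genes.

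Atf4 was also higher under the siFXR1-LNA label in B cells, at 55.9 and 47.4 against 211 and 117 CPM. In cluster 0 it was at 279 and 106 CPM under that label, while the siCont values there rest on 6 and 2 UMIs. In granulocytes, B cells and T cells edgeR called 0 genes of these 6 lists, and in dendritic cells 1, Eif2ak2, which was lower. DESeq2 called 3 genes of the eIF2 list in granulocytes, 3 in B cells and 1 in T cells, of 17 each, where it called 5.07%, 3.1% and 2.83% of all genes, and 5, 5 and 4 genes of that list reached an unadjusted p under 0.05, where 17.9%, 13.3% and 11.5% of all genes did. DESeq2 also called 1 cap regulator each in granulocytes and dendritic cells, and 2 genes of the eIF2 list in dendritic cells, where it called 4.92% of all genes.

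Myc was higher in Wt1-high cells (30.6 and 24.8 against 87.5 and 51.5 CPM, log2 1.35, SE 0.33), as was its antagonist Mxi1 (log2 1.51, SE 0.30). These were the 2 called of 7 tested in a list of Myc and its partners. Of 10 cell cycle genes edgeR called 4 lower there, where 7.42% of all genes were called, and DESeq2 called 2, with Ccna2 at 22.9 and 7.89 against 3.10 and 4.08 CPM. All 10 were called lower in macrophages by edgeR, where 18.2% of all genes were called, and DESeq2 called 10. In dendritic cells edgeR called 7 lower (3.49% of all genes called) and DESeq2 called 8. In granulocytes edgeR called 3 lower (2.69% of all genes called) and DESeq2 called 6. In B cells and T cells edgeR called 0, and DESeq2 called 0 and 1. The cycling finer cluster 4 of macrophages held 161 and 124 siCont-labelled against 26 and 42 siFXR1-LNA-labelled cells, and the part of this mix in the calls was not tested. The fragile X family gave 0 calls of 3 in each of the 6 types by edgeR and by DESeq2. In Wt1-high cells, macrophages and B cells 1 gene each had an unadjusted p under 0.05, where 22.4%, 36.1% and 13.3% of all genes did.

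The pattern of each gene was compared with 9137 others over 37 sums of a named cell type in a library, each of at least 10 cells, with NK cells, erythroid droplets and platelets included, on the log2(CPM + 1) scale. Genes closest to Eif4e were Uqcrc2 (Pearson r = 0.956), Copb1 (0.955) and Drg1 (0.951), where the median over all genes was 0.414. For Eif4g1 they were Smarca4 (0.962), Cyb5b (0.953) and Ap1g1 (0.945), and for Eif4g3 they included Zfx (0.969) and Cbfb (0.967). For Eif4a1 they were Mydgf (0.907), Ssr2 (0.885) and Timm23 (0.874), and for Eif4a2 Setd2 (0.881), Hnrnpr (0.879) and Krit1 (0.875). Eif4g2 lay nearest Rrs1 (0.872), Rbx1 (0.862) and Wdr75 (0.857). Eif4b lay nearest Pcbp2 (0.911), Fip1l1 (0.907) and Mtdh (0.906), and Eif4h nearest Mia3 (0.909), Anxa7 (0.899) and Supt5 (0.893). Eif4ebp1 lay nearest Irf2bp2 (0.927), Ppp2cb (0.867) and P4ha1 (0.864), and Eif4ebp2 nearest Usp7 (0.964), Itsn2 (0.949) and Ssh2 (0.947). Among the 10 themselves r ran from 0.12 (Eif4a2 with Eif4ebp1) to 0.92 (Eif4g3 with Eif4ebp2). The sums share libraries and depth, and in erythroid droplets and platelets most genes were low together, so these values are a description with no test.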

How the data were processed

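Single cells of ascites were captured with a 10x 3' kit, and the authors aligned the reads to mm10 and deposited raw UMI counts per gene and barcode from Cell Ranger 7.0.0, the version in the file headers. The cell filter passed barcodes with 100 to 4800 detected genes and no more than 15% mitochondrial UMIs. Barcodes were clustered in Seurat 5.3.0 (2000 variable genes, 50 components, resolution 0.1), and a cluster was named where at least 3 markers of a list were raised, 2-fold over the other cells and in 5% of its cells. Finer clusters holding at least 5 raised markers of another list were left out. The name Wt1-high was given after the values were seen. These rules were set after the clusters were seen, and the genes and lists were chosen with earlier results of these data known. Scrublet called 1, 0, 0 and 0 cells and so did not work as a doublet caller, and its scores served only to rank cells.

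Counts were summed per cell type and library and tested with edgeR 4.0.16 (quasi-likelihood test, Benjamini-Hochberg adjustment over all genes passing the filter on low counts, threshold 0.05), with DESeq2 1.42.0 as an alternative. Steps were tested on simulated data. Each library pools mice, so p-values measure the spread between 2 pools a group. The study's methods leave out a siFXR1-LNA replicate, described by its lower reads and cells but not numbered. Of the 2, replicate 2 held fewer barcodes (17309 against 54665) and UMIs (78179267 against 113606837). All 4 libraries were used here, and fits without replicate 2 were an alternative. Other alternatives were a minimum of 500 genes, resolution 0.3, naming each cell from its own marker UMIs, removing the top 5% of doublet scores, no filter, the replicate number as a block and each library left out. Keeping all finer clusters, and keeping only those with at least 10 cells in every library, were chosen after seeing the data. Genes of the pathway lists were named where called and moved one way in each siFXR1-LNA library, at most 3 a list and direction by size. Some genes that the rules pick are not reported here. Intervals cover counting error only. Ratios of Wt1-high cells to macrophages were also taken with 122 hemoglobin, mitochondrial and ribosomal protein genes left out of the denominator. Gene coordinates are from GENCODE on GRCm38.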

Additional observations from a re-analysis of the deposited data

Results flagged for a closer look

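In some pairs of cell types both siFXR1-LNA-labelled libraries lay on opposite sides of both siCont-labelled ones in CPM. For Eif4g1 this held for Wt1-high cells and T cells, where the log2 fold changes differed by 0.89 (Wt1-high cells higher), for macrophages and granulocytes (-0.35, macrophages lower) and for granulocytes and T cells (0.34, granulocytes higher). For Eif4a1 it held for granulocytes and dendritic cells (0.65, dendritic cells lower), B cells and dendritic cells (0.25) and T cells and dendritic cells (0.25). None of these 6 differences was tested. The sides are in CPM, in which the median gene was 0.21 higher than in the fit in granulocytes, 0.19 in B cells and 0.16 in T cells. In macrophages it was shifted by -0.17. The fitted log2 fold change of Eif4a1 was 0.06 in B cells (SE 0.24) and 0.06 in T cells (SE 0.26). The share of all genes with such opposite sides is not given here.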

How the results depend on the processing

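Of the log2 fold changes of the 10 genes in Wt1-high cells and macrophages, 234 values under an alternative kept direction and side of the threshold, 16 reversed, 5 passed newly and 5 no longer passed. The count of the 10 genes called in Wt1-high cells, 1, became 0 when cells were named from their own marker UMIs, 2 with no finer cluster left out, 4 with only shared finer clusters and 2 with no filter, and was 0 to 2 when a library was left out. In macrophages it became 0 with only shared finer clusters, and 0 to 1 with a library left out. It became 3 in B cells with only shared finer clusters, 1 in B cells and T cells with DESeq2, 1 in B cells, T cells and dendritic cells with no filter, and 0 to 1 in B cells, in granulocytes and for the interaction with a library left out.

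The replicate numbers are shared but nothing in the labels ties them to a day or litter. Deviations of same-numbered libraries correlated at -0.091 in Wt1-high cells and at 0.16 to 0.37 in the other types. With the replicate number as a block, 1 of the 10 genes (Eif4ebp1) was called in each of B cells, T cells and dendritic cells.

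Reversed values belonged to genes with a reported log2 fold change between -0.12 and 0.17. In Wt1-high cells Eif4a1 was 0.13 at resolution 0.3, 0.071 with own-marker naming and 0.82 with only shared finer clusters, and Eif4a2 was 0.19 at resolution 0.3, 0.039 with no finer cluster left out, 0.0024 with no filter and between -0.060 and 0.012 with a library left out. In macrophages Eif4e was -0.30 with only shared finer clusters, Eif4a1 was -0.068 with own-marker naming, -0.15 with only shared finer clusters and between -0.12 and 0.21 with a library left out, and Eif4ebp2 was -0.043 with own-marker naming and between -0.19 and 0.22 with a library left out. Own-marker naming moved the label difference in share to 6.99 percentage points for Eif4a1 and 11.1 for Eif4g1 in Wt1-high cells, and to 3.04 for Eif4g2 and -2.35 for Eif4g3 in macrophages. The number of all genes called ranged from 107 to 2388 in Wt1-high cells and from 0 to 3887 in macrophages over these alternatives, and from 514 to 1698 and 11 to 1613 with a library left out. The cause was not tested.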
